A study of Mus musculus with 6 samples.

Results

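The genes examined here encode the 2 protein complexes that start autophagy, the ULK kinase complex (*Ulk1*, *Ulk2*, *Atg13*, *Rb1cc1* and *Atg101*) and the Beclin 1 lipid kinase complexes (*Becn1*, *Pik3c3*, *Pik3r4*, *Atg14* and *Uvrag*). They were chosen by gene name. All 10 were on the array, out of 37074 gene names, and they were covered by 25 of 56605 probes. LSK cells (lineage marker negative, Sca1 positive and cKit positive), the bone marrow fraction that holds haematopoietic stem cells and early progenitors, were sorted from C57BL/6 mice at P6 to P8. RNA from 3 control samples (Atg5w/w;VaviCre+, hereafter control) and 3 samples labelled knock out (Atg5f/f;VaviCre+, hereafter Atg5f/f;Vav) was hybridised to 1-colour Agilent arrays, 1 array per sample. All samples carried the Cre transgene, whose Vav promoter is active mainly in haematopoietic cells, so cells outside the blood lineage largely keep floxed *Atg5*. The labels do not give the number of mice behind a sample, and a p-value here measures the spread between arrays.

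In fed cells the ULK complex is held inactive by mTORC1, and AMPK activates it when energy is low. The active ULK complex phosphorylates subunits of the Beclin complex, in which PIK3C3 makes the lipid phosphatidylinositol 3-phosphate (PI3P) on the membrane that will become the autophagosome. ATG5, the product of the deleted gene, acts later, in the conjugation of LC3 to that membrane, and haematopoietic stem cells depend on autophagy to keep their mitochondria in check.

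Each gene was read by 60-base probes, and a probe reports only transcripts that hold its site. The probes that decide the values below are shown by the first 30 of their 60 bases, 5′ to 3′, each named by its gene and by the base of its transcript at which it starts. They are shown because probes of the same gene did not always move alike. For *Pik3c3* only values are given.
Ulk1 base 5130: gtgagtctcccccttttgtgtttcactgtg
Ulk1 base 3132: aaactctgcctttcatctactgtgaagcag
Ulk2 base 3831: catagaagcagaacaaaaagttttccacat
Atg13 base 3491: gctttgttgggaaatgagagctacacctgg
Atg13 base 528: tgtctctttgagttatgtcaaaaagatcta
Rb1cc1 base 337: caagcaagcgcatataagacacttgtaatc
Rb1cc1 base 3424: acatcagccacacacaggagtttgagaaag
Rb1cc1 base 7119: tagtcttgggggggacagaaatgtataggg
Atg101 base 1013: gtgttgctgggatctcggggctctggaacc
Becn1 base 1095: ggtctgaagtttcagaggtaccgacttgtt
Pik3r4 base 4494: ttgtgaaggtgtggaaataagtcctgccga
Pik3r4 base 1070: aaattgaagatcgcagtatcagagacttgg
Atg14 base 3248: ggctgctttacatggtcttacgtagaacca
Uvrag base 3183: agtgtgcagaccacgagacagttgagatag
Uvrag base 1734: gtatctgggctcatgatatttataccctaa
Uvrag base 3658: aattggaagtcgaagatcttcctcagccaa

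On mm9, the build of the array design, the *Ulk1* probe at base 5130 lies at chr5:111213514-111213573 and that of *Ulk2* at base 3831 at chr11:61591022-61591081. Those of *Atg13* at base 3491 and *Atg101* lie at chr2:91514791-91514850 and chr15:101121149-101121208. The 8 probes of *Rb1cc1* run along the gene from its first site at chr1:6218062-6218121 to its last at chr1:6266242-6266301, and the probe used for the gene lies between them at chr1:6239414-6239473. The *Becn1* probe spans chr11:101151771-101152713, longer than the probe itself, so it crosses an intron and reads spliced RNA. The *Pik3r4* probe at base 4494 lies at chr9:105589596-105589655, the *Atg14* probe at chr14:48160711-48160770 and the *Uvrag* probe at base 3183 at chr7:106035448-106035507. Exon and UTR boundaries of this build were not used here.

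Levels are given as log2 signal relative to each array's 75th percentile, so that 0 is the signal of the probe at that percentile. Of 25 probes, 24 passed the scanner's background flag on 3 or more of the 6 arrays and were tested with limma, with Benjamini-Hochberg adjustment over all 32074 probes tested and a threshold of 0.05. A gene is represented by its tested probe with the highest mean signal. A lower signal can mean less RNA per cell or fewer cells of a type that expresses the gene, which cannot be told apart in sorted bulk RNA.

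The 6 arrays lay on 1 slide scanned once, the controls all in the first row of the slide and the Atg5f/f;Vav arrays all in the second, so an effect of the row cannot be told apart from one of genotype. The share of spots well above background was 59.4% to 59.9% on control arrays and 53.6% to 56.7% on Atg5f/f;Vav arrays. The *Atg5* probe starts at base 2251 of the transcript, and whether the deletion covers it is not given in the labels. Its signal rose by 0.54 (limma, standard error 0.12, adjusted p = 0.0209) in the group labelled knock out, so it does not check the labels. Of the gate's defining genes, *Kit* had a difference of −0.38 (adjusted p = 0.0563 from limma) and *Ly6a*, which encodes Sca1, rose by 1.57 (adjusted p = 0.00623). Summed linear signals of stromal markers (5 of 6 tested, 0 higher and 3 lower) ranged from 2.83 to 31.2 on control and from 0.994 to 1.68 on Atg5f/f;Vav arrays, with the low control value on replicate 1. The *Col1a1* signal was −4.14, 3.23 and 2.95 on control arrays, and no Atg5f/f;Vav array was well above background. *Cxcl12*, on the same list, went the other way among the control arrays, at −0.59, −2.19 and −3.12. Erythroid markers (5 of 5 tested, 2 higher and 2 lower) summed to 217 to 493 on control and 70.1 to 96.5 on Atg5f/f;Vav arrays, a sum led by *Hba-a1*. The globin genes *Hba-a1* and *Hbb-b1* had differences of −2.26 and −1.92, whereas *Klf1* and *Epor*, expressed in erythroid progenitors, rose by 2.95 and 2.08. Neutrophil markers (8 of 8 tested, 2 higher and 5 lower) summed to 175 to 277 on control and 216 to 270 on Atg5f/f;Vav arrays. *Mpo* led this sum on all arrays but control replicate 1, where *S100a9* did, so the overlap of the sums hides opposite changes. The mean *Mpo* signal rose from 6.56 to 7.57, and *Prtn3* rose by 0.89. *Ltf*, *Camp*, *S100a8*, *S100a9* and *Ngp* had differences of −1.38, −1.29, −1.38, −1.34 and −1.21, and *Elane* (−0.21) did not pass. Of the other marker lists, macrophage (4 of 5 tested) had 0 calls, T and NK cell (4 of 6) had 0, B cell (5 of 5) had 1 higher, megakaryocyte (5 of 5) had 1 higher and 2 lower, and mast cell and eosinophil (4 of 4) had 1 higher. *Mrc1*, *Cd3g*, *Ncr1* and *Col3a1* were well above background on 0 arrays. The part of slide row and of these markers in the members' differences was not tested.

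Of the 10 members, *Becn1* and *Pik3c3* rose in Atg5f/f;Vav LSK cells and *Rb1cc1* and *Atg14* fell, each by less than 1.5-fold at its representing probe. The other 6 did not pass the threshold. With the mean of its probes, *Rb1cc1* had a larger difference, −0.66. Across the array, 34.4% of tested probes passed, 17.3% higher and 17.1% lower, so 2 members each way was close to the share among all probes. The control and Atg5f/f;Vav signals did not overlap for 7 of the 10 representing probes, against 55.4% of all probes tested. The members' median difference was 0.07, with 6 above and 4 below 0, and the median of all probes tested was −0.06. The ULK complex had 0 members higher and 1 lower (median −0.34), and the Beclin complex had 2 higher and 1 lower (median 0.12).

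**Figure D1:**
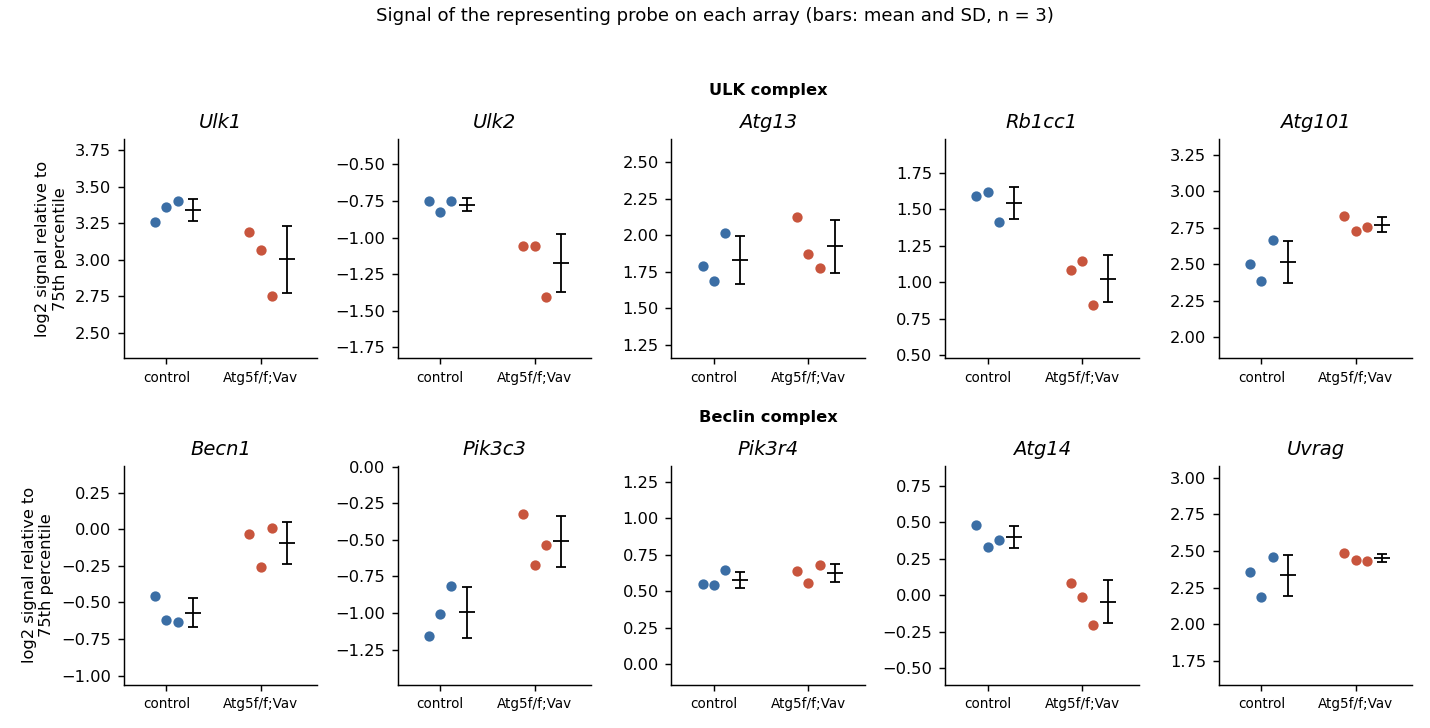
Signal of the representing probe of each member (log2, relative to the array's 75th percentile) on the 3 control and 3 Atg5f/f;Vav arrays, with mean and SD beside the points; each panel spans the same range of log2 units around its own centre. The groups are apart for 7 genes, and *Atg13*, *Pik3r4* and *Uvrag* overlap.

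*Ulk1* and *Ulk2* encode the related serine/threonine kinases at the core of the ULK complex. The *Ulk1* signal was 3.26, 3.36 and 3.40 on control arrays and 3.19, 3.07 and 2.75 on Atg5f/f;Vav arrays. All 3 Atg5f/f;Vav values were below the control values, with replicate 3 the lowest. The difference was −0.34 (limma, 95% interval −0.67 to 0.00, standard error 0.14, adjusted p = 0.105), which missed the threshold. The second *Ulk1* probe, at base 3132, crosses an intron and was well above background on 3 control arrays and 1 Atg5f/f;Vav array. It had a difference of −0.81 (adjusted p = 0.0307 from limma), so the Atg5f/f;Vav end of that value rests on signals near background. Without Atg5f/f;Vav replicate 3, the lowest array, the difference at base 5130 was −0.21 (adjusted p = 0.188 from limma). The call for *Ulk1* was gained with quantile normalisation (−0.61, adjusted p = 0.0342), and with the mean of both probes (−0.57, adjusted p = 0.0271).

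The *Ulk2* signal was −0.75, −0.82 and −0.75 on control arrays and −1.06, −1.06 and −1.41 on Atg5f/f;Vav arrays. The groups did not overlap. *Ulk2* differed by −0.40 between the groups (limma, standard error 0.13, adjusted p = 0.0532). The other *Ulk2* probe, at base 3581 of the same transcript, had nearly the same difference, −0.37, and an adjusted p of 0.0397, on the other side of the threshold. In the 5 alternatives that called it, among them normexp background correction (−0.32, adjusted p = 0.0458), *Ulk2* was lower.

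*Rb1cc1* encodes FIP200, the large scaffold on which the ULK complex assembles. Its signal was 1.59, 1.62 and 1.41 on control arrays and 1.09, 1.14 and 0.84 on Atg5f/f;Vav arrays. Every Atg5f/f;Vav value lay below every control value. The mean was 1.54 ± 0.11 (SD, n = 3) on the control arrays and 1.02 ± 0.16 (SD, n = 3) on the Atg5f/f;Vav arrays, a difference of −0.52 (limma, standard error 0.13, adjusted p = 0.0255) and a signal 1.43-fold lower. This was the member with the most probes, and all 8 were lower in Atg5f/f;Vav. The differences were −0.61 at base 337, −0.77 at base 2359, −0.70 at base 4743, −0.62 at base 6294 and −0.52 at base 7119. The probe at base 5157 had a difference of −0.29 (adjusted p = 0.126 from limma), the smallest of the 8, and its groups overlapped. A probe for another transcript (base 1846) gave −1.25, but it was well above background on 3 control arrays and only 1 Atg5f/f;Vav array, so the size of that value rests on signals near background. In all, 7 of the 8 probes passed as lower and 7 did not overlap, beside 17.1% and 55.4% of all probes tested. These probes read one gene and are not separate evidence, but the difference was seen from its first to its last probe site.

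*Atg13* and *Atg101* encode HORMA-domain partners that link the kinase to the scaffold. The *Atg13* signal was 1.79, 1.69 and 2.02 on control arrays and 2.13, 1.87 and 1.78 on Atg5f/f;Vav arrays, and the groups overlapped. The values differed by 0.09 (limma, 95% interval −0.25 to 0.44, standard error 0.14, adjusted p = 0.631). A second probe, designed on another cDNA, had a difference of −0.49 (adjusted p = 0.0538) without overlap, so the probes of *Atg13* disagreed in sign. The *Atg101* signal was 2.50, 2.39 and 2.67 on control arrays and 2.83, 2.73 and 2.76 on Atg5f/f;Vav arrays. Its groups did not overlap, but the difference of 0.25 (limma, standard error 0.12, adjusted p = 0.126) did not pass. The 95% interval ran from −0.02 to 0.53.

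*Becn1* encodes Beclin 1, the regulatory subunit to which BCL2 binds, and *Pik3c3* encodes VPS34, the catalytic subunit. The *Becn1* signal was −0.45, −0.62 and −0.63 on control arrays and −0.03, −0.26 and 0.01 on Atg5f/f;Vav arrays. All Atg5f/f;Vav values were above all control values. The mean was −0.57 ± 0.10 (SD, n = 3) on the control arrays and −0.09 ± 0.14 (SD, n = 3) on the Atg5f/f;Vav arrays. *Becn1* rose by 0.48 (limma, standard error 0.12, adjusted p = 0.0274), or 1.39-fold.

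The *Pik3c3* signal was −1.16, −1.01 and −0.81 on control arrays and −0.32, −0.67 and −0.54 on Atg5f/f;Vav arrays. The groups were apart, though control replicate 3 and Atg5f/f;Vav replicate 2 were close. The mean was −0.99 ± 0.17 (SD, n = 3) on the control arrays and −0.51 ± 0.18 (SD, n = 3) on the Atg5f/f;Vav arrays. *Pik3c3* rose by 0.49 (limma, standard error 0.14, adjusted p = 0.0411), or 1.40-fold. Each of these genes had 1 probe on the array, so neither difference could be checked at another site.

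*Pik3r4* encodes VPS15, the regulatory kinase-like subunit that anchors VPS34. Its signal was 0.55, 0.54 and 0.64 on control arrays and 0.64, 0.56 and 0.68 on Atg5f/f;Vav arrays. The groups overlapped, and the values differed by 0.05 (limma, 95% interval −0.20 to 0.29, standard error 0.10, adjusted p = 0.743). A probe for another transcript, at base 4860, had a difference of −0.09 (adjusted p = 0.571 from limma). A further probe, designed on a separate cDNA (base 1070), was well above background on 3 control and 0 Atg5f/f;Vav arrays. Taking the lowest signal well above background as the floor on each Atg5f/f;Vav array, it was at least 1.15-fold lower there. This bound was not tested, and the adjusted p of 0.0146 from limma belongs to the difference without the floor (−0.69). The last *Pik3r4* probe, at base 4066, was well above background on 0 arrays and was not tested.

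*Atg14* and *Uvrag* encode alternative partners of Beclin 1. ATG14 directs the complex to the site of autophagosome formation, and UVRAG takes its place in the complex that acts on endosomes. The *Atg14* signal was 0.48, 0.33 and 0.38 on control arrays and 0.08, −0.01 and −0.20 on Atg5f/f;Vav arrays. Every Atg5f/f;Vav value was below every control value. The mean was 0.40 ± 0.07 (SD, n = 3) on the control arrays and −0.04 ± 0.15 (SD, n = 3) on the Atg5f/f;Vav arrays. *Atg14* fell by 0.44 (limma, standard error 0.12, adjusted p = 0.0316), a signal 1.36-fold lower.

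The *Uvrag* signal was 2.36, 2.18 and 2.46 on control arrays and 2.49, 2.44 and 2.43 on Atg5f/f;Vav arrays. The groups overlapped through control replicate 3. The values differed by 0.12 (limma, 95% interval −0.15 to 0.39, standard error 0.11, adjusted p = 0.437). Both further *Uvrag* probes, each designed on another cDNA, had the opposite sign and no overlap. Their differences were −0.32 at base 1734 (adjusted p = 0.097) and −0.46 at base 3658 (adjusted p = 0.0469).

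**Figure D2:**
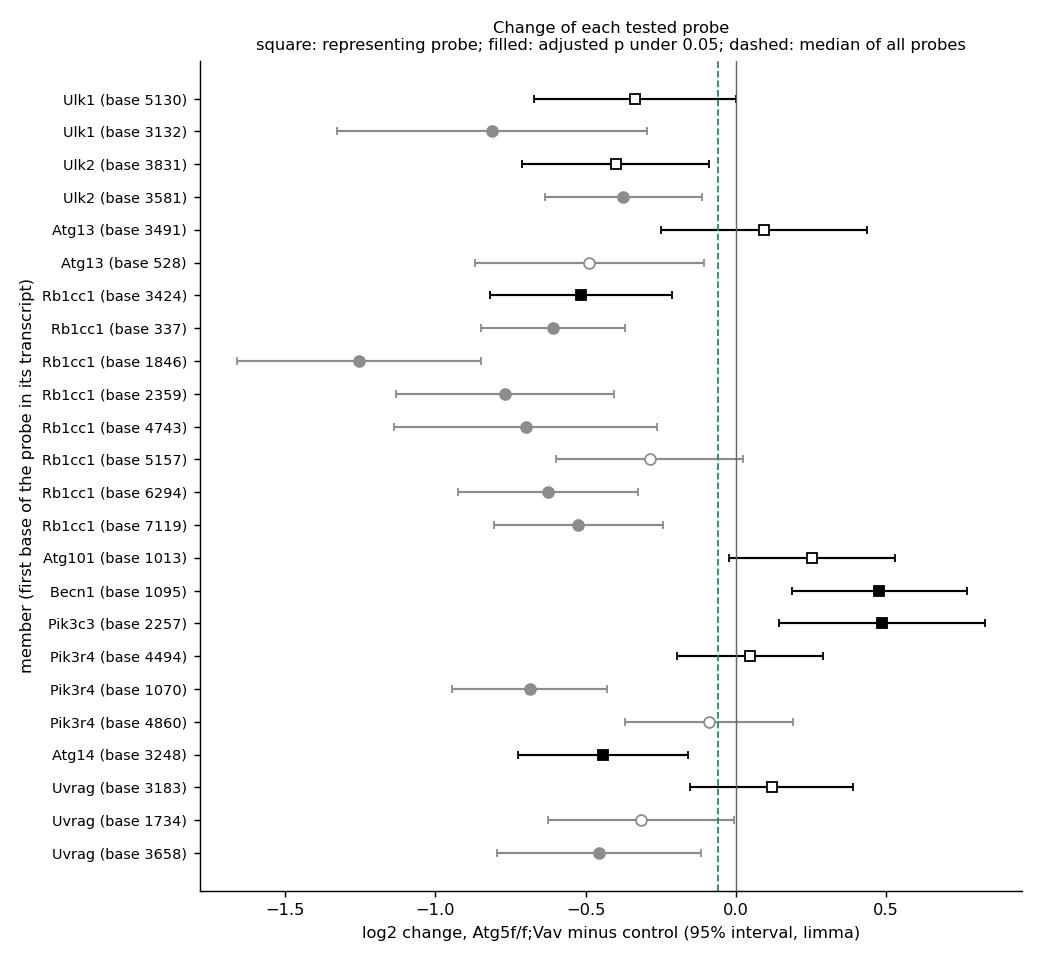
Difference between Atg5f/f;Vav and control (log2, with its 95% interval from limma) for the 24 tested probes of the 10 members, named by the transcript base at which each starts. Squares are representing probes, filled symbols passed an adjusted p of 0.05, and the dashed line is the median of all probes (−0.06). All 8 *Rb1cc1* probes lie below 0, while probes of *Atg13*, *Pik3r4* and *Uvrag* lie on both sides.

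Counted by probe, 2 of the 24 tested passed higher and 12 lower, and 19 had groups that did not overlap. Across the array, 17.3% of probes tested passed higher and 55.4% had groups that did not overlap. Of the 12 lower, 7 were *Rb1cc1* probes and the others were 1 each of *Ulk1*, *Ulk2*, *Pik3r4*, *Atg14* and *Uvrag*. The count of 12 is above the 17.1% of all probes that passed lower, but it is led by a gene with 8 probes and holds probes near background.

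The calls depended on the control arrays. Without control replicate 1 or without control replicate 2, 0 members passed (3 and 5 at an unadjusted p under 0.05), and across the array the count fell from 11024 probes to 330 and 251. The differences themselves stayed of the same sign in every alternative for *Rb1cc1*, *Atg14*, *Becn1* and *Pik3c3*. *Rb1cc1* passed with each of the other 4 arrays left out, with adjusted p of 0.038 to 0.0435, whereas leaving out control replicate 1 or 2 gave 0.0956 and 0.0957. *Atg14* missed without control replicate 1 or 2 (adjusted p of 0.12 and 0.0883), and also without control replicate 3 (adjusted p = 0.0655) and without Atg5f/f;Vav replicate 2 (0.0685). *Becn1* missed without control replicate 1 or 2 (adjusted p of 0.0747 and 0.0993), and also without control replicate 3 (adjusted p = 0.0673) and without Atg5f/f;Vav replicate 1 (0.0563). *Pik3c3* missed with each array left out (adjusted p of 0.0525 to 0.143) but control replicate 3. In a further setting, control replicate 1, the control array with the lowest summed stromal signal, was the only control. The spread then comes from the Atg5f/f;Vav arrays alone, so only sizes are read. The differences were then −0.56 for *Rb1cc1*, −0.52 for *Atg14*, 0.36 for *Becn1* and 0.65 for *Pik3c3*. When the scaling percentile was taken over the probes that all 6 arrays detected, the median of all probes moved from −0.06 to −0.27. *Becn1* and *Pik3c3* then had differences of 0.27 (adjusted p = 0.107) and 0.28 (adjusted p = 0.14), and *Ulk1*, *Ulk2*, *Rb1cc1* and *Atg14* passed as lower.

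The difference between the groups followed signal strength across the whole array, and the members were read against that. When the 32074 probes were ordered by mean signal and cut into 5 equal groups, the median difference was −0.35, −0.24, −0.11, 0.07 and 0.25 from the dimmest to the brightest. *Becn1* and *Pik3c3* lay in the middle group, where 13.3% of probes passed higher, and both lay 0.59 above its median. *Rb1cc1* and *Atg14* lay in the second brightest group, where 11.7% passed lower, at 0.58 and 0.51 below its median. *Ulk1* lay in the brightest group, where only 3.76% passed lower, at 0.59 below its median. *Atg101* had the same difference, 0.25, as the median of its group. The positive values of *Atg13* and *Uvrag* lay below the median of the brightest group, to which both belong, by 0.16 and 0.13. *Pik3r4* lay 0.02 below and *Ulk2* 0.29 below the median of its group. These distances are descriptions without a test.

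**Figure D3:**
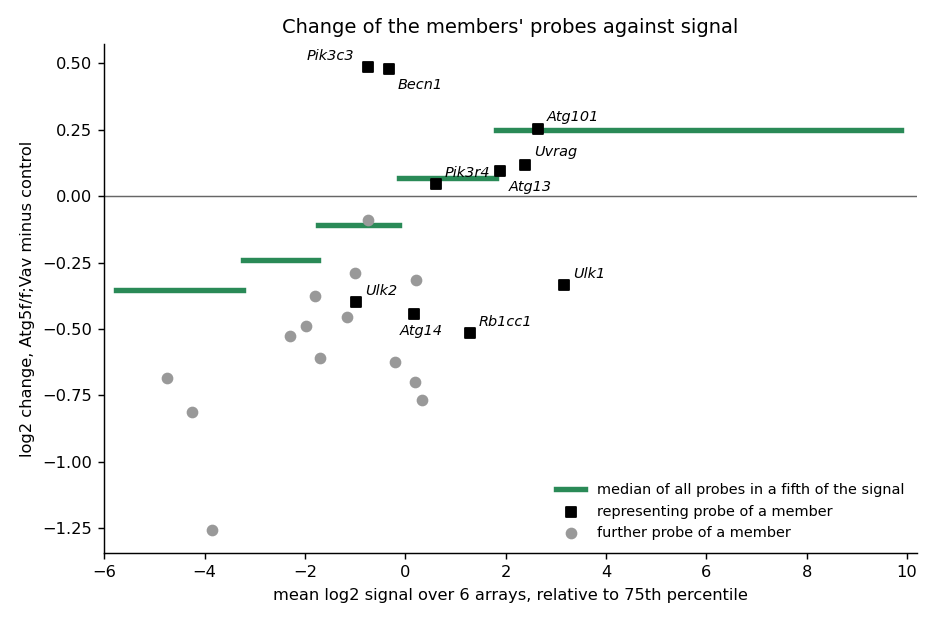
Difference between Atg5f/f;Vav and control (log2) against mean log2 signal over 6 arrays for the members' probes, with squares for representing and circles for further probes; each green line is the median of all probes over 1 of 5 equal groups by signal. The medians climb from −0.35 to 0.25, *Becn1* and *Pik3c3* stand above their group's line, and *Ulk1*, *Rb1cc1* and *Atg14* stand below theirs.

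To compare partners without scaling between arrays, the log2 ratio of the signals of 2 genes was taken within each array for 6 pairs. A ratio of probe signals is not a ratio of transcript numbers, so only its difference between groups is read. The ratio also keeps the dependence of the difference on signal described above. *Atg13* and *Uvrag* lie in the brightest group (median 0.25). *Rb1cc1*, *Atg14* and *Pik3r4* lie in the second brightest (0.07) and *Pik3c3* in the middle group (−0.11). The part of this dependence in the ratios was not tested. An exact permutation test of 3 against 3 arrays cannot go below p = 0.1 (2-sided), so no pair could pass 0.05. For *Atg14* over *Uvrag*, the alternative Beclin 1 partners, the ratio was −1.88, −1.85 and −2.08 on control arrays and −2.40, −2.45 and −2.64 on Atg5f/f;Vav arrays. The ratio was lower on all 3 Atg5f/f;Vav arrays, by 0.56 on average (exact p = 0.1, 0.2 after Benjamini-Hochberg over the 6 pairs). With quantile normalisation the difference was −0.36, and with the mean of each gene's probes it was −0.22.

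For *Atg13* over *Rb1cc1*, the ratio was 0.20, 0.07 and 0.60 on control arrays and 1.04, 0.73 and 0.93 on Atg5f/f;Vav arrays. It was higher without overlap, by 0.61 (exact p = 0.1, adjusted 0.2). For *Pik3r4* over *Pik3c3*, the 2 core subunits of the lipid kinase, the ratio was 1.71, 1.55 and 1.46 on control arrays and 0.96, 1.23 and 1.21 on Atg5f/f;Vav arrays. It was lower without overlap, with a difference of −0.44 (exact p = 0.1, adjusted 0.2), which was −0.73 with the mean of each gene's probes. That mean includes the *Pik3r4* probe at base 1070, which was well above background on 0 Atg5f/f;Vav arrays. The other 3 pairs overlapped between the groups. *Becn1* over *Pik3c3* differed by −0.01 (exact p = 1), *Ulk1* over *Ulk2* by 0.06 (exact p = 0.5) and *Atg13* over *Atg101* by −0.16 (exact p = 0.2), which was −0.085 with quantile normalisation and −0.45 with the mean of each gene's probes.

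**Figure D4:**
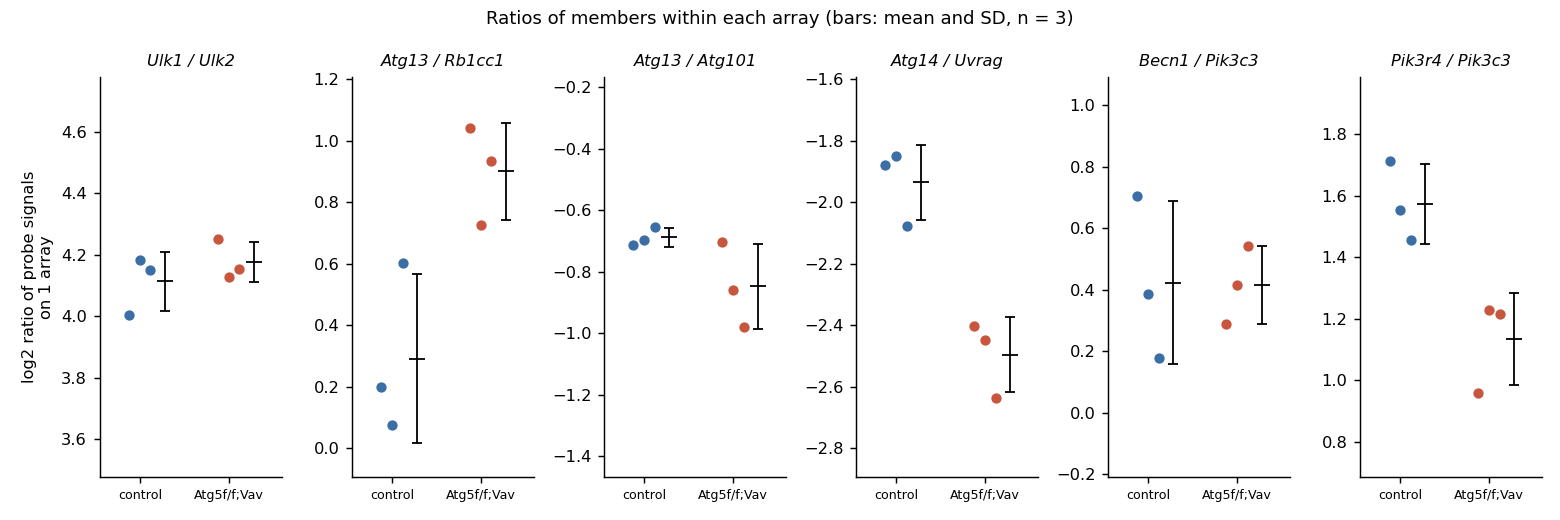
Log2 ratio of the representing probes of 2 members within each array, for 6 pairs, on 3 control and 3 Atg5f/f;Vav arrays, with mean and SD beside the points. The groups are apart for *Atg13*/*Rb1cc1*, *Atg14*/*Uvrag* and *Pik3r4*/*Pik3c3* (differences 0.61, −0.56 and −0.44) and overlap for the other 3.

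The genes around the complexes were taken in 5 lists, with 43 genes tested, of which 9 passed higher and 4 lower, 13 in all, beside 34.4% of all probes tested (17.3% higher and 17.1% lower). Taken both ways, the share of these genes that passed was near that of all probes, but the share that passed lower was smaller. Counted by 1 representing probe per gene, 3887 of 20778 genes on the array passed higher and 3189 lower. Among regulators that bind or tune the Beclin complex, 9 of 11 were tested, 4 rose and 0 fell, and the median was 0.36. Apart from *Dapk1*, the tested regulators lay in the brightest or second brightest group by signal. In those groups the median of all probes was 0.25 and 0.07, and 37.7% and 23.8% passed higher, respectively. *Bcl2*, which holds Beclin 1 inactive, rose by 0.67 (adjusted p = 0.0333 from limma). *Nrbf2*, which encodes a subunit of the ATG14 complex, rose by 0.66 (adjusted p = 0.0254). The other 2 were *Ambra1* (0.39) and *Vmp1* (0.36). Further probes had the same sign for *Bcl2* (0.54 and 0.21), *Nrbf2* (0.52) and *Vmp1* (0.43), and the second *Ambra1* probe gave −0.01. *Rubcn*, an inhibitor of the UVRAG complex, had a difference of −0.21 (adjusted p = 0.301), and *Rubcnl* and *Becn2* were not tested.

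Among the energy and nutrient sensors upstream of ULK1, AMPK and mTORC1 with their partners, 14 of 15 were tested, 3 rose and 1 fell, and the median was 0.16. *Stk11*, which encodes the AMPK-activating kinase LKB1, rose by 0.65 (adjusted p = 0.0289 from limma), and *Mtor*, the kinase that inhibits ULK1, rose by 0.56 (adjusted p = 0.0442) and by 0.88 at its second probe. The AMPK gamma subunits went opposite ways, with *Prkag1* higher by 0.46 (adjusted p = 0.038) and *Prkag2* lower with a difference of −0.78 (adjusted p = 0.041), which its second probe also gave (−0.78). *Prkaa2* was not tested. The direction of this list depended on the scaling: 2 rose and 2 fell with quantile normalisation (median −0.012), and 0 rose and 5 fell with the percentile over probes that all arrays detected (median −0.043).

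Downstream, of 10 genes for PI3P effectors and lipid transfer, 1 rose and 3 fell, and the median was −0.11. *Atg9a*, which encodes the membrane scramblase of seed vesicles, had the largest difference of the 43 genes, −0.88 (limma, standard error 0.10, adjusted p = 0.00888). *Zfyve1*, which encodes a PI3P-binding protein of the omegasome, fell by 0.46 (adjusted p = 0.0262), and its further probes gave −0.13 and −0.30. *Wipi2*, which encodes a PI3P effector that recruits the LC3 conjugation machinery, had −0.40 (adjusted p = 0.0322) at its brightest probe but 0.01 and −0.15 at the others. *Tmem41b*, a scramblase gene, rose by 0.42 (adjusted p = 0.0467), and its second probe gave 0.12. Of 7 genes for endosomal PI3P use and turnover, *Vac14*, the scaffold of the PIKfyve complex, rose by 0.70 (adjusted p = 0.0229) and 0 fell, and the median was 0.03. This list had 0 higher and 1 lower with quantile normalisation, 1 and 1 with the percentile over probes that all arrays detected, and 1 and 2 with the mean of a gene's probes. The 3 ULK-related kinases *Ulk3*, *Ulk4* and *Stk36* had 0 calls in limma and 0 at an unadjusted p under 0.05.

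**Figure D5:**
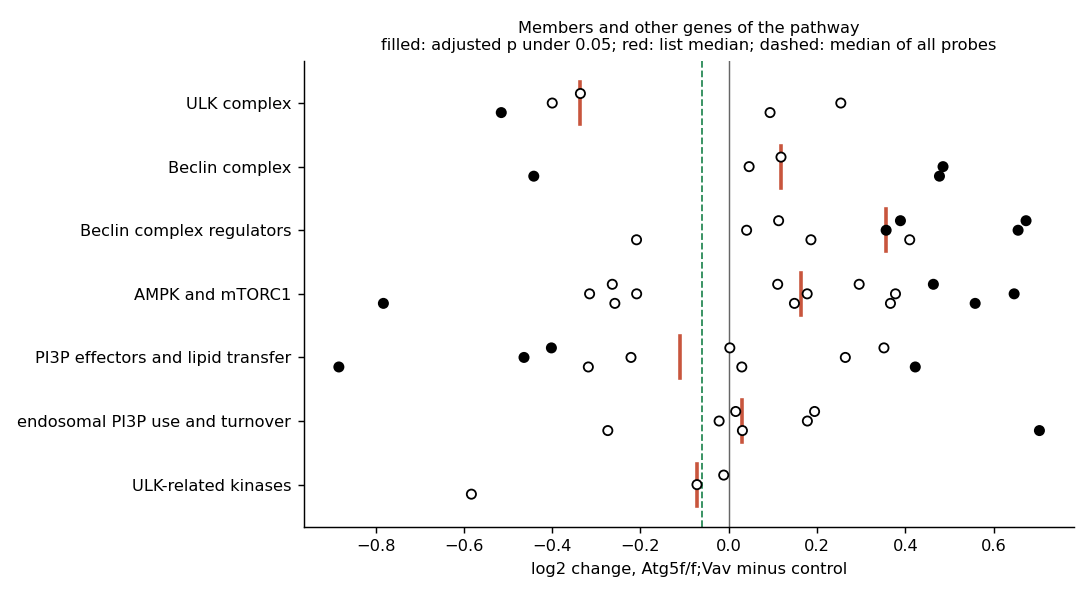
Difference between Atg5f/f;Vav and control (log2) of each tested gene of both complexes and of the 5 surrounding lists; filled circles passed an adjusted p of 0.05, red lines are list medians and the dashed line is the median of all probes (−0.06). The Beclin complex regulators have the highest median, 0.36, and the ULK complex the lowest, −0.34.

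The calls in these lists rested on the same arrays as those of the members. Without control replicate 1 or 2, 0 of the 43 genes passed (10 and 12 at an unadjusted p under 0.05), and without any other array 6 to 9 did. With the scaling percentile over the probes that all 6 arrays detected, 2 passed higher and 10 lower, in place of 9 and 4, and of the Beclin complex regulators 1 passed in place of 4. Quantile normalisation also left 1 of these regulators.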

How the data were processed

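LSK cells were measured on 6 arrays, 3 per group, with groups and replicate numbers taken from the sample titles. The scanner files deposited by the authors hold 1 intensity per spot (Agilent Feature Extraction 12.0.3.1 per the labels), background-corrected and not scaled between arrays. The authors also deposited a table of normalised signal on a linear scale, which equals that intensity divided by 1 constant per array (spread of the ratio at most 0.000267%). It was used only as an alternative.

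Intensities were log2 transformed and scaled by subtracting, on each array, the 75th percentile of its 59305 non-control spots (620.3 to 881.4 before the log). The 64 to 81 spots per array that the scanner software marked as outliers were dropped, 0 spots were saturated, and spots of a probe were averaged. Probes marked as well above background on 3 or more of the 6 arrays (32074) were fitted in R 4.3.3 with lmFit and eBayes of limma 3.58.1. P-values were 2-sided and adjusted after Benjamini and Hochberg over these probes. Pairs of members were compared with a 2-sided exact permutation test. The number of arrays limits the precision. Of these steps, only the limma fit was tested on simulated data, with noise drawn independently for each probe and array. The scaling, the background filter and the permutation test were not simulated.

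The members and gene lists were chosen with earlier results of these data known. Genes named are all members with every probe, and in each surrounding list up to 2 rises and 2 falls with the largest change among those that passed. Further genes of these lists (*Ambra1*, *Vmp1*, *Rubcn*, *Prkag1*, *Wipi2*, *Rubcnl*, *Becn2*, *Prkaa2* and the ULK-related kinases) were named after their values were seen. *Atg5*, *Kit*, *Ly6a*, the neutrophil markers that passed and markers on which a result turns were also named. *Rubcn* and *Rubcnl* were matched by accession. As alternatives, quantile normalisation, the deposited values or a percentile over the probes that all arrays detected replaced the scaling, and normexp with an offset of 50 replaced the background correction. The filter on dim probes was dropped or set to all 6 arrays, outlier spots were kept, and a gene's probes were averaged. The test was run with a trend on intensity in eBayes, as the methods' t-test, with a block for the replicate number, and without each array in turn. One control array alone was added after seeing the data. Since all arrays shared 1 slide and 1 scan, neither could be fitted as a block.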

Additional observations from a re-analysis of the deposited data

How the results depend on the processing

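All 10 members were measured well above background on 6 arrays by their representing probes. The limits include the number of arrays, the scaling, the choice of probe and the slide row, which cannot be told apart from genotype. In limma the members called higher and lower numbered 2 and 2. They numbered 0 and 4 with the scaling percentile over the probes that all arrays detected (array-wide 3365 probes higher and 10086 lower, in place of 5540 and 5484), 2 and 4 with the mean of a gene's probes, 0 and 0 without a filter on dim probes, 0 and 0 with the methods' t-test and 0 and 0 with control replicate 1 as the only control, where the spread comes from the Atg5f/f;Vav arrays alone. At an unadjusted p under 0.05 the last 3 settings gave 2 and 3, 3 and 3, and 1 and 0. Leaving out each array gave 0 to 1 higher and 0 to 2 lower. Probes called array-wide fell from 11024 to 4538 without the filter, 0 with the t-test (13541 unadjusted), 0 with control replicate 1 alone (7307 unadjusted) and 251 to 10304 with an array left out. The members' median of 0.07 moved to −0.083 with quantile normalisation, −0.14 with the percentile over detected probes and −0.23 with the mean of probes, and ranged from 0.016 to 0.13 with an array left out. Called Beclin complex regulators numbered 4, and 1 with quantile normalisation and with the percentile over detected probes. Endosomal PI3P genes numbered 1, then 2 with that percentile and 3 with the mean of probes, and PI3P effectors 4, then 1 with the mean of probes. Without the filter the Beclin regulators, AMPK and mTORC1, PI3P effector and endosomal lists had 0, 0, 1 and 0 calls, and with the t-test or control replicate 1 alone 0 each. With an array left out they had 0 to 2, 0 to 2, 0 to 4 and 0 to 1. Signs turned for *Atg13* (−0.076 with quantile normalisation, −0.11 with the percentile over detected probes, −0.0071 without Atg5f/f;Vav replicate 1, −0.20 with the mean of probes), *Pik3r4* (−0.16 with that percentile, −0.24 with the mean of probes) and *Uvrag* (−0.089, −0.088 and −0.22 with quantile normalisation, that percentile and the mean of probes). The ratio of *Ulk1* to *Ulk2* turned to −0.30 with quantile normalisation and −0.19 with the mean of probes, and that of *Becn1* to *Pik3c3* ranged from −0.13 to 0.13 with an array left out. Ranges with an array left out were 0.50 to 0.76 for *Atg13* to *Rb1cc1*, −0.23 to −0.09 for *Atg13* to *Atg101*, −0.63 to −0.49 for *Atg14* to *Uvrag*, −0.50 to −0.35 for *Pik3r4* to *Pik3c3* and 0.01 to 0.10 for *Ulk1* to *Ulk2*. With the mean of probes these ratios were 0.46, −0.45, −0.22, −0.73 and −0.19 in the same order, and with quantile normalisation 0.56, −0.085, −0.36, −0.56 and −0.30. The causes were not tested.

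Deviations of same-numbered arrays correlated at −0.07, 0.19 and 0.11 across probes, which cannot tell whether the replicate numbers pair the samples. Control replicates 2 and 3 correlated best with their own number, and control replicate 1 with Atg5f/f;Vav replicate 2 (0.13). With the replicate number as a block, members called higher numbered 1 and lower 2, *Pik3c3* had an adjusted p of 0.075 from limma, Beclin complex regulators had 1 call and PI3P effectors 2, and 10173 probes passed.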
